A study of Mus musculus with 2 samples.

Results

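The unfolded protein response and the integrated stress response were followed through 10 genes, 2 sensors (Ern1 and Eif2ak3), 3 transcription factors (Atf4, Xbp1 and Ddit3) and 5 targets (Hspa5, Trib3, Asns, Chac1 and Sesn2), among the 22180 genes that had a probe set with exactly 1 gene symbol. The members were picked by symbol and role, with no expression floor, and each of the 10 had 1 probe set. The kidneys came from male mice of the genotypes Iah1-WT and Iah1-KO, a systemic knockout of an esterase gene related to isoamyl acetate hydrolases. Both groups were caged singly, ate chow to the age of 6 weeks, then fat-rich food for 12 weeks, and had food taken away 4 hours before death in the early afternoon. RNA of 3 mice was pooled on 1 array per genotype, so each gene has 2 values, no replicate and no test, and every difference compares those 2 pools. The sources used here do not give the strain or the deleted part of the allele.

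Proteins enter the secretory pathway at the endoplasmic reticulum (ER), where a chaperone binds them as they fold. When unfolded protein builds up, the membrane sensors IRE1 (encoded by Ern1), PERK (Eif2ak3) and ATF6 respond: IRE1 splices Xbp1 mRNA, PERK phosphorylates the initiation factor eIF2alpha, and ATF6 is cut to release a transcription factor. Phosphorylation of eIF2alpha, which other kinases also carry out when amino acids or heme run short or viral RNA is present, slows translation in general but favours that of Atf4 mRNA, and this branch is called the integrated stress response. Kidney tubule cells, which handle large amounts of filtered and secreted protein, are known to use both. An array reads mRNA only, so neither the splicing of Xbp1, the phosphorylation of eIF2alpha nor the translation of Atf4 was measured here.

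Promoter stretches of the members that the values below turn on are shown first, because the targets are read through short elements in them. They are from RefSeq on the mouse build GRCm38.p6, which held a window for all 10 members, and are written 5′ to 3′ on the strand of the gene, with bases counted from the start site. Capitals mark a match to an element. In Hspa5 (chr2:34771990-34772089, plus strand, bases -100 to -1) they mark the ER stress response element, CCAAT and CCACG with 9 bases between them, which NF-Y and ATF6 or XBP1 read. In Asns (chr6:7693210-7693289, minus strand, bases -80 to -1), Chac1 (chr2:119351022-119351092, plus strand, bases -220 to -150) and Trib3 (chr2:152344028-152344057, minus strand, bases 4 to 33) they mark the core of the amino acid response element, TGATGNAA on either strand, which ATF4 reads with C/EBP partners, and in Asns and Chac1 also CCACG, the end of the ER stress response element. The Trib3 match lies after the start site. In Sesn2 (chr4:132510457-132510556, minus strand, bases -100 to -1) they mark CCACG on the opposite strand. Xbp1 (chr11:5520541-5520640, plus strand, bases -100 to -1) is shown because its value differed, and its window held no match to any of the elements searched.
Hspa5: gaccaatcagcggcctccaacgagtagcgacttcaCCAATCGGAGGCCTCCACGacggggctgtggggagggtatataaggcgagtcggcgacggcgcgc
Asns: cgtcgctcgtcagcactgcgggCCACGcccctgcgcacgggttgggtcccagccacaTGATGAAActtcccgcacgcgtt
Chac1: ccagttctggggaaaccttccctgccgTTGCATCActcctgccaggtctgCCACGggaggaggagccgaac
Trib3: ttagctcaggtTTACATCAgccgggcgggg
Sesn2: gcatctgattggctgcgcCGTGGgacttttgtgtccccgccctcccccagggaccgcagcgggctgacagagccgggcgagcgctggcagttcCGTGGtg
Xbp1: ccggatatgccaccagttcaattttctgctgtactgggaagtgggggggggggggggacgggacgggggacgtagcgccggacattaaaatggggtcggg

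Each window ran from 250 bases before to 50 bases after the start site. Of 32851 such windows in the RefSeq table, 3.97% held TGATGNAA on either strand, 0.119% held the full ER stress response element and 32.8% held CCACG, which also forms part of that element. The amino acid response core was matched in 3 of the 10 members, the full ER stress response element in 1 and CCACG in 6. Of the 16918 measured genes with a window, members included, 664 held the core, 29 the full element and 6940 CCACG. Neither ATTGG and CCACG with 1 base between them, a second form of the ER stress response element (0.0365% of windows), nor TGACGTGG, the unfolded protein response element (0.676%), was matched in a member. A match is a description of letters in the window, and a missing match says nothing of the factor.

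**Figure D1:**
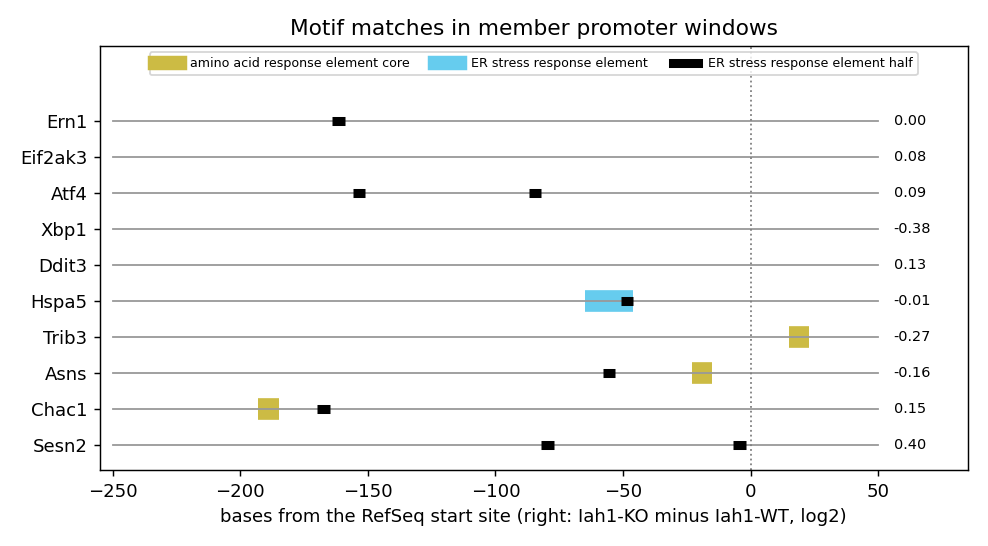
Positions of the element matches in the promoter window of each member, in bases from the RefSeq start site on the x axis, with 1 line per gene and the log2 difference between the pools at the right. The 3 genes with the amino acid response core differed by -0.27, -0.16 and 0.15, and Hspa5, with the full ER stress response element, by -0.01.

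Xbp1 and Sesn2 were the only members that differed between the pools by at least 0.32 on the log2 scale, a ratio of 5 to 4, with Xbp1 lower and Sesn2 higher in Iah1-KO kidney. That difference is the fold used for every count here. Both sensors, Atf4, Ddit3 and the ER chaperone gene Hspa5 lay within 0.13 on the log2 scale between pools. The counts were 1 of 10 members higher and 1 of 10 lower. Of all 22180 genes, 6.99% were higher and 8.01% lower by that fold. With no floor on the mean value, the members' shares were thus near those of genes in general. Among genes with a mean value of at least 6, which scatter less than dimmer ones, 2.51% were higher and 1.65% lower. Of the 6 members in that range, 1 was higher (Sesn2) and 1 lower (Xbp1), or 16.7% each. Those shares lie above the 2.51% and 1.65% but rest on 1 gene in each direction. No member reached 1.5-fold. The median difference of the 10 members was 0.04, beside 0.00 over all genes. Values are log2 RMA values, which put both arrays on a common distribution, and a difference is the Iah1-KO value minus the Iah1-WT value. Where 2 values stand side by side, Iah1-WT comes first.

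**Figure D2:**
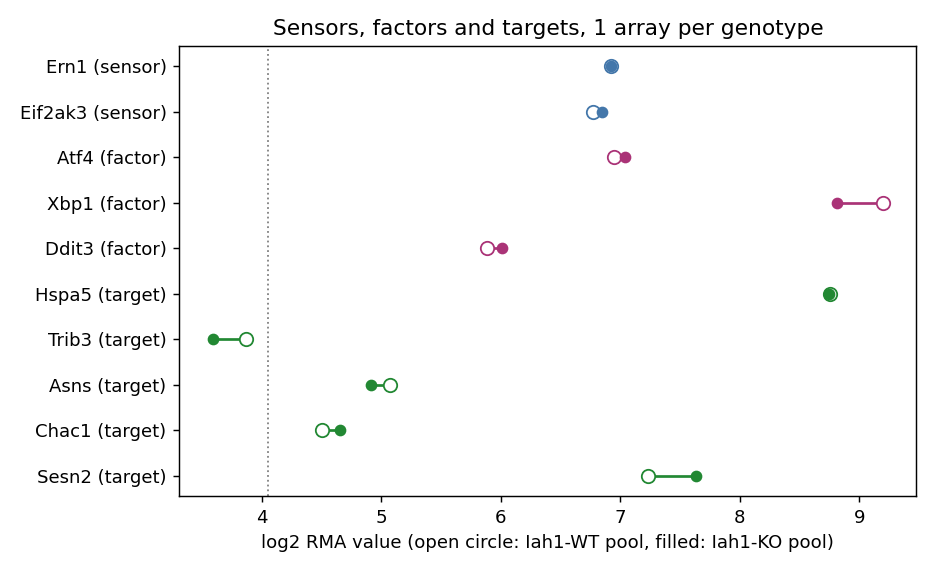
Log2 RMA value of each member in the Iah1-WT pool (open circle) and the Iah1-KO pool (filled circle), by role, with 1 array per genotype and no error bars because there is no replicate. The dotted line is the median of all probe sets on the Iah1-WT array, 4.05; Xbp1 and Sesn2 have the longest bars, in opposite directions, and both Trib3 values lie left of the line.

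The sensors were alike in the pools. Ern1, whose protein IRE1 is both a kinase and the endoribonuclease that cuts Xbp1 mRNA, was at 6.92 in Iah1-WT and 6.92 in Iah1-KO kidney (6.9238 and 6.9250 before rounding). Eif2ak3, the gene of the eIF2alpha kinase PERK, was at 6.77 in Iah1-WT and 6.85 in Iah1-KO kidney, a difference of 0.08. Across the 500 genes nearest to it in mean value, the differences had a robust SD (the median absolute deviation scaled to an SD) of 0.15, so the PERK gene differed by less than genes of its level commonly did. Atf6, the gene of the remaining ER sensor and no member, was at 8.24 and 8.29. Ern2, the paralog of Ern1 known from gut epithelium, was at 3.53 and 3.33, under the array medians. The other eIF2alpha kinases gave values of 8.06 and 8.06 for Eif2ak1 (the heme-regulated kinase), 6.39 and 6.40 for Eif2ak2 (the kinase activated by double-stranded RNA) and 5.17 and 5.05 for Eif2ak4 (the amino acid sensor GCN2).

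The factors differed from one another. Xbp1, the bZIP factor that IRE1 switches on by splicing and that drives genes of ER folding and degradation, was at 9.20 in Iah1-WT and 8.81 in Iah1-KO kidney. The latter was thus 1.3-fold lower, a difference of -0.38. Genes of this brightness scattered little: the 500 nearest in mean value had a robust SD of 0.09, and 8 of them (1.60%) were lower by the fold used while 0 were higher. Those 500 include Xbp1 itself, which is 1 of the 8. The Xbp1 difference was -4.42 times that robust SD, the furthest of any member from its neighbours.

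Atf4, the bZIP factor whose translation rises when eIF2alpha is phosphorylated, was at 6.95 in Iah1-WT and 7.04 in Iah1-KO kidney. Ddit3, which encodes the pro-apoptotic factor CHOP, was at 5.88 in Iah1-WT and 6.01 in Iah1-KO kidney. Both genes were therefore slightly higher in the Iah1-KO pool, Atf4 by 0.09 and Ddit3 by 0.13, and both differences were under 1 robust SD of their neighbours (0.14 and 0.20). Xbp1 was the 1 factor of 3 with a lower Iah1-KO value.

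Among the targets, Hspa5 reads out the ER arm and the other 4 read out the eIF2alpha arm. Hspa5, the gene of the ER chaperone BiP and the usual marker of ER stress, was at 8.75 in both pools, with a difference of -0.01. Its neighbours in level had a robust SD of 0.11, and 1 of 500 was higher and 5 were lower by the fold used. The gene whose promoter shows the full ER stress response element above was thus at the same value while the factor gene Xbp1 was not. Among its relatives the differences were -0.02 (Hspa8, the constitutive cytosolic chaperone), -0.07 (Hspa9, of mitochondria), -0.04 (Hspa13, of the ER) and 0.09 (Hspa1a, the heat-inducible form).

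Sesn2 was the member with the largest difference upward. It encodes sestrin 2, a leucine-binding inhibitor of the growth kinase complex mTORC1 that is induced by ATF4 and also by p53 and NRF2. Its value was 7.23 in Iah1-WT and 7.64 in Iah1-KO kidney, which is 1.32-fold higher and a difference of 0.40. The robust SD near its level was 0.14, which puts the difference at 2.82 times that spread. Of the 500 nearest genes, 13 (2.60%) were higher by the fold used, and Sesn2 itself is 1 of the 13. Its relatives gave other values: Sesn1, a p53 target, was at 6.44 and 6.21, and Sesn3, a target of FOXO factors, at 7.82 and 7.85.

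The 3 targets with the amino acid response core in their windows were dim and did not share a direction. Asns, the asparagine synthetase gene, was at 5.07 in Iah1-WT and 4.91 in Iah1-KO kidney. Chac1, whose enzyme breaks down glutathione, was at 4.51 and 4.66. Trib3, a pseudokinase gene induced by ATF4 and CHOP, was at 3.86 and 3.59, under the median of all probe sets on its array in both pools (4.05 and 4.03), so it may not be above background. The differences were -0.16, 0.15 and -0.27, each under 1 robust SD of genes at the same level (0.26, 0.24 and 0.28). At these levels even larger differences, of at least 0.32, were common. Of the 500 genes nearest to Asns, 11.2% were higher and 11.0% lower by that much, and 16.4% of those nearest to Trib3 were lower. A change of these 3 targets of the size seen for Sesn2 could not be told from the scatter of dim probe sets on these 2 arrays. Among relatives, Trib2 was at 7.45 in Iah1-WT and 6.95 in Iah1-KO kidney, a difference of -0.50 against a robust SD of 0.13, whereas Trib1 was at 5.90 and 6.13. Chac2, the constitutive paralog of Chac1, differed by 0.08.

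**Figure D3:**
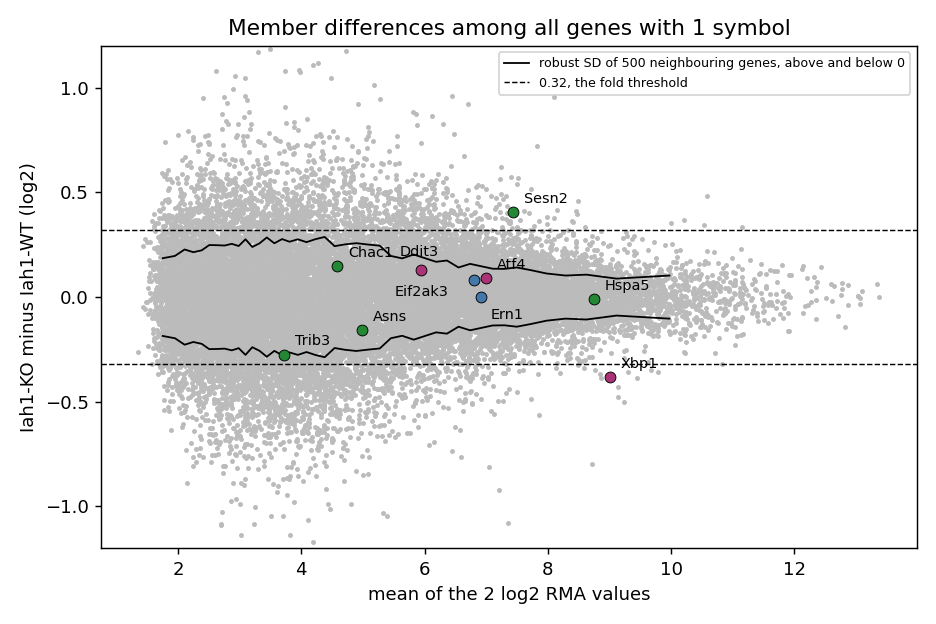
Difference between the pools (Iah1-KO minus Iah1-WT, log2) against the mean of the 2 values for all genes with 1 symbol (grey) and the members (blue sensors, purple factors, green targets); solid lines show the robust SD of consecutive groups of 500 genes above and below 0, dashed lines 0.32. Sesn2 lies above the upper dashed line and Xbp1 below the lower one, both outside the solid lines, and the y axis leaves out the 12 genes beyond 1.2.

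The wider pathway was described with 11 lists that hold no member. Not all of these are pathway lists in the strict sense, since relatives of the members and targets of p53 and NRF2 are included. The 11 lists covered 184 measured genes of 197, and 5 were higher and 5 lower by the fold used, with a median of 0.00. With a mean value of at least 6 there were 143, of which 3 were higher (Traf2, Txndc5 and Hmox1) and 2 lower (Trib2 and Col6a1). These shares are near or under the background given above, and 0 of the 184 reached 1.5-fold. Of the genes named, Hmox1 was listed as an NRF2 target and Trib2 as a relative of a member.

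Genes around the sensors and eIF2alpha had 1 of 21 higher and 0 lower, with a median of 0.00. The higher one was Traf2, an adaptor that binds activated IRE1, at 5.95 in Iah1-WT and 6.32 in Iah1-KO kidney. Only its Iah1-KO value lay above 6, and 9.0% of the genes nearest to Traf2 in mean value were higher by the fold used. Eif2b5, a subunit of the exchange factor that phosphorylated eIF2alpha blocks, was at 6.55 and 6.27. Other differences in this list were 0.19 for Bok and 0.16 for the subunit Eif2b2. The feedback phosphatase subunits gave 5.09 and 5.10 for Ppp1r15a (GADD34), which ATF4 induces, and 8.16 and 8.30 for the constitutive Ppp1r15b.

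The bZIP genes that pair with or resemble the 3 factors had the highest list median, 0.12 over 18 genes. Of these, 12 lay above 0 and 6 below, beside 10934 above and 11192 below of all 22180 genes. Still, 1 was higher by the fold used and 0 were lower. That gene was Atf5, a factor translated under the same control as Atf4, at 5.59 in Iah1-WT and 5.93 in Iah1-KO kidney. Of the 9 bZIP genes with a mean of at least 6, 5 lay above 0 and 4 below, with a median of 0.10. Of all 7461 genes with such a mean, 3896 lay above 0 and 3563 below. Among those 9 bZIP genes, the largest differences were 0.28 for Cebpa, 0.17 for Creb1, 0.15 for Atf2 and 0.13 for Atf7. Cebpb, a partner of ATF4 at the amino acid response element, was at 5.54 and 5.84, and Atf3 at 5.32 and 5.48.

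Further targets of ATF4 and CHOP were counted next. Of 30 measured, 2 were higher and 2 lower, with a median of 0.02. The higher ones were Psph, of serine synthesis, at 5.25 in Iah1-WT and 5.81 in Iah1-KO kidney, and Atf5. The lower ones, Fgf21 (3.48 and 2.95) and Slc7a3 (2.78 and 2.43), lay under the array medians and may not be above background. All 4 had means under 6. Of the 11 with a mean of at least 6, 0 were higher and 0 lower, with Slc1a4, a neutral amino acid transporter, at -0.31, Pck2, the mitochondrial phosphoenolpyruvate carboxykinase, at 0.28, Herpud1 at 0.14 and Slc38a2 at 0.10. The list of aminoacyl-tRNA synthetases, a class that ATF4 induces together, with the tRNA exporter Xpot, had 0 of 19 past the fold in either direction and a median of 0.00, with Hars furthest at 0.27, Tars at 0.19, Mars1 at 0.18 and Lars at -0.15.

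The ER genes that XBP1 and ATF6 control were set beside Xbp1 and Hspa5. Of 24 chaperones and folding enzymes 1 was higher and 0 were lower, with a median of -0.01. The higher one was Txndc5, a disulfide isomerase, at 7.25 in Iah1-WT and 7.58 in Iah1-KO kidney, and a loess correction ended that call by a narrow margin (0.3175 against a threshold of 0.3219). Ero1b, an oxidase that recharges such isomerases, differed by -0.26, Sil1, the exchange factor of BiP, by 0.21 and Creld2 by 0.18. Dnajb9, a cochaperone gene that depends on XBP1, was at 8.48 and 8.46 and was named for this role after its value was seen. ER-associated degradation had 0 of 20 higher and 1 lower, the dim Derl3 (4.64 and 4.11), and the ubiquitin ligase gene Syvn1 differed by 0.29, Ube2j1 by 0.22, Herpud1 by 0.14 and Aup1 by 0.13. In the translocon and secretory entry list, 0 of 24 passed the fold in either direction. There, 7 lay above 0 and 17 below, beside 10934 above and 11192 below of all 22180 genes. The list median was -0.05, with Srp9 at -0.25, Sec63 at -0.21, Srp68 at 0.15 and Sec23b at -0.13.

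Transcripts that IRE1 is known to cut and degrade directly gave a median of -0.20 over 7 genes, or -0.11 over the 6 with a mean of at least 6, without the dim Scara3. There were 6 below 0, beside 11192 of all 22180 genes, 0 higher and 1 lower by the fold used. That gene was Col6a1, at 6.63 in Iah1-WT and 6.30 in Iah1-KO kidney, which lies at the threshold itself, and centring all differences on their median (-0.3196) or averaging its probe sets (-0.15) ended that call. Pmp22 differed by -0.22 and Sparc by -0.20, whereas Pdgfrb (-0.02) and Hgsnat (0.00) were close to 0 and Bloc1s1, the best known of these transcripts, was at 7.30 and 7.32. Col6a1, Sparc and Pdgfrb are also genes of matrix-producing and perivascular cells.

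**Figure D4:**
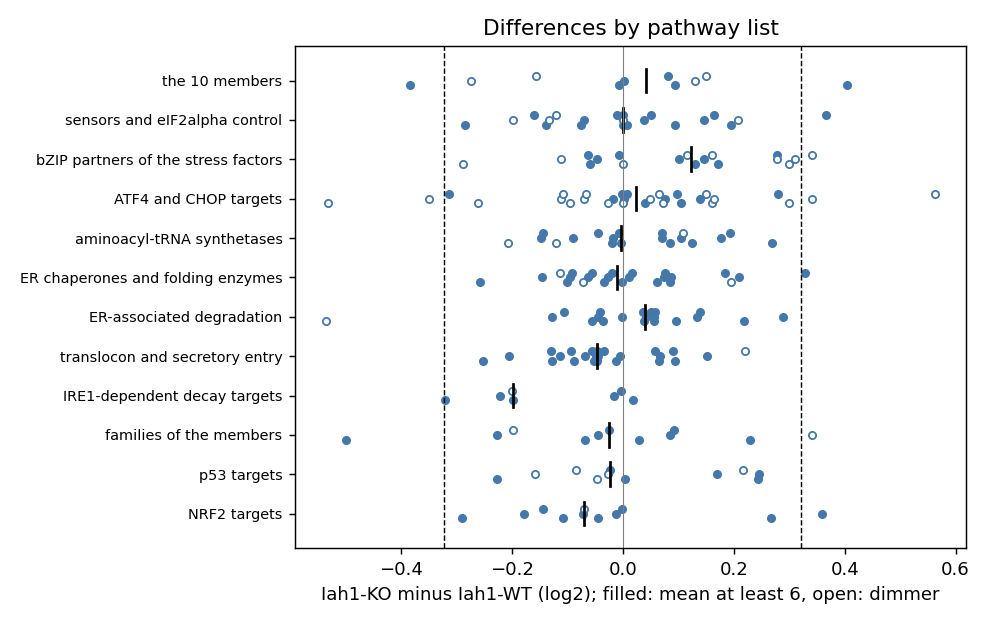
Difference between the pools (Iah1-KO minus Iah1-WT, log2, x axis) of every measured gene by list, with filled points for a mean value of at least 6, open points for dimmer genes, black bars for list medians and dashed lines at 0.32 and -0.32. Most points of every list lie between the dashed lines, and the medians run from -0.20 to 0.12.

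Sesn2 is also a target of p53 and NRF2, so the targets of both were counted beside it. Of 11 p53 targets 0 passed the fold in either direction, with a median of -0.02, or 0.09 over the 6 with a mean of at least 6. Among these the values were 0.25 for Mdm2, 0.24 for Zmat3, -0.23 for Sesn1 and 0.17 for Ccng1. Of 11 NRF2 targets 1 was higher and 0 were lower, with a median of -0.07. There were 9 below 0, beside 11192 of all 22180 genes. The higher one was Hmox1, heme oxygenase, at 6.10 in Iah1-WT and 6.46 in Iah1-KO kidney, and Gsr differed by -0.29, Osgin1 by 0.27 and Gclc by -0.18.

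The labels and the tissue were checked with genes outside the pathway. Iah1 was at 9.09 in Iah1-WT and 3.60 in Iah1-KO kidney. All 10 proximal tubule markers lay between 10.4 and 12.7 in both pools, with a median difference of 0.03 and 0 past the fold. Loop of Henle markers had a median of -0.11, with 1 above 0 and 5 below. The median was 0.10 for endothelium, with 6 above and 1 below, and 0.10 for podocytes, with 4 above and 1 below. Distal tubule markers had 0.04, with 4 above and 2 below. Of all 22180 genes, 10934 lay above 0 and 11192 below. Among these lists only the dim Pvalb of the distal tubule (5.47 and 5.14) passed the fold. Plasma cells express Xbp1 strongly, so their markers, together with those of B cells, are given beside it. Of 12 such markers 11 were measured. They ranged from 2.91 to 7.93 in the Iah1-WT pool and from 2.81 to 8.16 in the Iah1-KO pool, 6 lay under the array median in both, and their summed linear signal, most of it from Ighm, was 413 and 476. Their differences had a median of -0.02, with 5 above 0 and 6 below. Jchain, of secreted immunoglobulin, was at 4.67 and 5.43, Prdm1 at 4.71 and 5.05, Mzb1 at 4.47 and 4.26 and Ighm at 7.93 and 8.16, while Pou2af1 differed by -0.17, Sdc1 and Irf4 by -0.10 and Tnfrsf17 by -0.09. The markers thus had no common direction, and the part of these cells in the Xbp1 value was not tested. In whole kidney RNA, fewer cells of a type and less RNA per cell cannot be told apart.

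Genes were also grouped by the elements in their own promoters. Outside the members, the full ER stress response element was matched for 28 measured genes, of which 1 was higher and 3 were lower (10.7%) by the fold used, and 12 of them had a mean of at least 6. Of those 12, 0 were higher and 0 lower by that fold, and their median was -0.03. The ER genes Hsp90b1 (-0.10), Pdia6 (-0.09), Dnajc3 (-0.07), Canx (-0.06) and Calr (0.01) were among them, as were Syvn1 and Ero1b. The amino acid response core was matched for 661 genes, of which 11.0% were higher and 8.02% lower, beside 6.67% and 7.77% of the 16918 genes with a window. Of the 661, 148 were genes with a mean of at least 6. In that range 5 were higher (3.38%) and 0 lower, beside 2.36% higher and 1.49% lower of the 5970 genes with a window and such a mean. The 5 were Fancd2os, Rbm47, Dffa, Socs4 and Txndc5, with differences from 0.33 to 0.52. Fancd2os was at 5.87 in Iah1-WT and 6.39 in Iah1-KO kidney, so only its Iah1-KO value lay above 6. Among the genes nearest to Fancd2os in mean value, 9.0% were higher by the fold used. That share was 3.0% for Rbm47, 5.4% for Dffa, 2.8% for Socs4 and 2.6% for Txndc5.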

How the data were processed

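Kidney RNA was hybridised to 1 Affymetrix whole-transcript array per genotype. Per the submitters' processing notes, the authors used RMA and version 1.3.0 of Affymetrix Expression Console, and the deposited values are log2 values per probe set. RMA subtracts background, quantile-normalizes the arrays and summarises probes, so a shift of most genes in 1 direction would not show and dim probe sets show compressed differences. GEO's platform annotation named 23521 of 41345 probe sets with exactly 1 symbol; 1814 had several and 16010 none. The brightest probe set was taken for the 1082 genes with several. The sources used here do not give the array's genome build. Detection calls were not used here.

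Differences and counts past 1.25-fold (0.32 on the log2 scale) were computed with Python 3.11.15, numpy 2.4.6 and pandas 2.3.3. No p-value or SE is given, because each genotype has 1 array of pooled RNA; the number of arrays limits the precision. Robust SDs (median absolute deviation times 1.4826 over the 500 genes nearest in mean, the gene itself included) describe scatter across genes, not replicates. Members and lists were chosen with earlier results of these data known. Genes named were all members and their relatives, up to 4 genes per list with the largest difference and a mean of at least 6, and listed genes past 1.5-fold; others were named for their role, or as a small count, after values were seen. Listed genes without such a probe set were not analysed here. Motifs were searched on both strands of RefSeq windows, matched by gene number for 16918 genes. The counting and motif steps were tested on simulated data.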

Additional observations from a re-analysis of the deposited data

How the results depend on the processing

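The counts depended on the fold and on dim genes. At 1.5-fold, 0 members were higher and 0 lower, and 0 pathway genes passed. At 1.1-fold, which 23.2% of all genes exceeded upward and 24.9% downward, 2 members were higher, 3 were lower and 63 pathway genes passed, against 1, 1 and 10 at the threshold of 0.32 (log2). With a mean of at least 6 the pathway count was 5 of 143 genes, against 10 of 184 with no such floor. Centring gave 9 pathway genes and the mean over probe sets 9, both without Col6a1, and the loess correction 11, without Txndc5 but with Slc1a4 and Cebpd. A loess correction on mean value (span 0.3) moved the 10 members by at most 0.04, each by less than the robust SD of genes of that level. For Xbp1 and Sesn2 it brought no change of sign. Centring only took the same value, the median of all genes (-0.0024), from every difference. The mean over probe sets could not move a member, because each had 1 probe set. No paired analysis was possible because each genotype has 1 array. For the same reason no replicate could be left out. Genes grouped by the end of their protein sequence were not run.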

Other observations

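Other promoter groups and cell markers are described here as values only. CCACG was matched for 6934 measured genes outside the members. Of these, 5.54% were higher and 6.49% lower by the fold used, or 2.13% and 1.28% of the 3193 with a mean of at least 6. TGACGTGG, the unfolded protein response element, was matched for 147 measured genes outside the members. Of these, 6 were higher (4.08%) and 11 lower (7.48%), beside 6.67% and 7.77% of the 16918 genes with a window, and 69 had a mean of at least 6. Of those 69, 3 were higher (4.35%) and 0 lower by at least 0.32 on the log2 scale, beside 2.36% and 1.49% of all 5970 genes with a window and such a mean, with a median of 0.00; the 3 were Pigp, Slc22a17 and Txndc5. Txndc5 was thus matched for both this element and the amino acid response core. Pigp was at 5.88 in Iah1-WT and 6.26 in Iah1-KO kidney, so only its Iah1-KO value lay above 6. Among the genes nearest to Pigp in mean value, 9.0% were higher by the fold used. That share was 5.6% for Slc22a17 and 2.6% for Txndc5. ATTGG and CCACG with 1 base between them were matched for 9 genes, of which 1 was higher and 0 were lower. With a mean of at least 6 there were 6 of them, of which 0 were higher and 0 lower. Herpud1 (0.14) and Dnajb11 (0.08), both genes of ER protein quality control, were among those 6. Genes with the amino acid response core were dimmer than others: 22.4% had a mean of at least 6, beside 35.3% of all genes with a window. The part of this dimness in the shares of these genes past the fold was not tested.

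Among cell markers, 6 differed by at least 1.5-fold. Atp6v1g3, of intercalated cells of the collecting duct, was at 7.46 in Iah1-WT and 6.64 in Iah1-KO kidney. The 8 collecting duct markers had no common direction, with 4 above 0 and 4 below and a median difference of 0.03. Aqp2 was higher (6.20 and 6.68), while Slc4a1 differed by 0.18, Slc26a4 by -0.09 and Foxi1 by -0.18. The macrophage markers Adgre1 (5.10 and 4.37) and Lyz2 (6.11 and 6.74) went opposite ways. The adipocyte genes Lep (4.61 and 3.95) and Cidec (4.91 and 4.26) were lower and Jchain was higher, all 3 dim. Adipoq, the defining adipocyte marker, was under the array median in both pools (3.57 and 3.44). The 7 adipocyte markers had a median difference of -0.12, with 2 above 0 and 5 below. Plin1 differed by 0.10, Retn by 0.20 and Fabp4, the brightest of the 7, by -0.07 (8.40 and 8.34). Markers of the adrenal cortex and of pancreatic acinar cells, tissues that lie near the kidney, reached at most 4.84 in either pool.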
